A study of Mus musculus with 15 samples.

Results

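Casr, Atp12a, Calb2 and Cadps, 4 of the 27907 genes measured, encode proteins that sense, move or respond to calcium or other ions. They were picked by name because earlier values of the same ovaries had shown higher levels in HSD17B1-KI than in WT mice, so that the difference between genotypes is given for them as a description, and counts of calls on it are shown but carry no weight. Tested were the relations of the 4 genes to each other and to Star, a gene of steroid synthesis, among mice of the same genotype. Their values are also set beside those of Cyp17a1, a second such gene, without a test.

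Ovarian mRNA was sequenced in 7 HSD17B1-KI and 8 WT female mice at 6 months of age in estrus, with 1 library per mouse. HSD17B1-KI mice carried the HSD17B1 Ser143Ala point mutation, homozygous and in every cell, made by gene editing in the germ line, and they and the WT mice came from crosses of heterozygous parents. HSD17B1 converts estrone to estradiol in granulosa cells. Because the allele is a point mutation, the level of Hsd17b1 itself, from 5459 to 17386 normalized counts in HSD17B1-KI and from 6480 to 14111 in WT, does not check the genotype labels.

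Casr is the calcium-sensing receptor, a G protein-coupled receptor best known in the parathyroid gland and the kidney, where it reads extracellular calcium and signals through Gq and Gi proteins. Atp12a is the catalytic subunit of the non-gastric proton-potassium ATPase, which takes up potassium in exchange for protons. Calb2, or calretinin, is a cytosolic calcium buffer with EF-hand domains, and Cadps primes dense-core vesicles for calcium-triggered release. In the ovary, Cyp17a1 is the androgen-forming enzyme of theca and interstitial cells, and Star carries cholesterol into mitochondria in all steroid-forming cells.

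Promoters are shown for Casr and Cadps, because of the 4 genes these 2 were found in the RefSeq promoter table of GRCm38.p6, so that the start regions of 2 members can be set side by side. Each covers 250 bases before to 50 bases after the start of the gene, written 5′ to 3′ on the minus strand. Capitals mark the CCAAT box, 1 of 7 motifs searched on both strands.
Casr, chr16:36562085-36562384: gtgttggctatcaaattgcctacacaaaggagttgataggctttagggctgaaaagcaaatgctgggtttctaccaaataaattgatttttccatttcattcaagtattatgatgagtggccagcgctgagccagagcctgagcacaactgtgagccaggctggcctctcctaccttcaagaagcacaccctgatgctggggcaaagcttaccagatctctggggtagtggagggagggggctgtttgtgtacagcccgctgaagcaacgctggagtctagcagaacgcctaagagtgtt
Cadps, chr14:12823030-12823329: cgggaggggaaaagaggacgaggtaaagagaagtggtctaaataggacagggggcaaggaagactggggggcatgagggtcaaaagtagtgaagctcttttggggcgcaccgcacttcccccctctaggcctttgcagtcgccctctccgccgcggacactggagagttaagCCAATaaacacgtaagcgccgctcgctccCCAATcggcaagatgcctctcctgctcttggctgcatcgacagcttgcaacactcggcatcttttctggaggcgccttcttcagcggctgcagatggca
The Cadps window held 2 CCAAT boxes, letters that 37.4% of the 32851 promoters in the table held. The Casr window held no CCAAT. Neither window held CAAGGTCA, the extended half-site of NR5A1 type found in 1.56% of promoters, nor its core AGGTCA, which lies within it and was found in 16.3%. Neither held TGACGTCA (1.79%), AGATAA (11.2%), TATAAA (13.6%) or GGGCGG (35.7%). GC content was 49.7% for Casr and 58.0% for Cadps, against a median of 52.7% over all promoters.

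Casr (ENSMUSG00000051980) lies on the minus strand of chromosome 16, from 36493696 to 36562141 (GRCm38, GENCODE M21). In HSD17B1-KI mice 1 to 7 it had 72.0, 43.5, 34.5, 18.5, 2.44, 42.9 and 34.7 normalized counts, that is, reads divided by the size factor of the library. In WT mice 1 to 8 it had 0, 3.23, 1.10, 4.99, 0.787, 0, 8.43 and 4.77 normalized counts. Thus 6 of 7 HSD17B1-KI mice exceeded the whole WT range, and HSD17B1-KI mouse 5 was inside the WT range. The level averaged 35.5 ± 21.7 over HSD17B1-KI mice (SD, n = 7) and 2.91 ± 3.00 over WT mice (SD, n = 8), which makes a ratio of 12.2. The WT values rest on 0 to 7 reads per library, and the 2 values of 0 allow up to 5.09 normalized counts in WT mouse 1 and 3.75 in WT mouse 6, for counting error only. On the log2(normalized count + 1) scale the difference was 3.24 (SE 0.64), which understates the change of a gene this low.

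Atp12a (ENSMUSG00000022229) lies on the plus strand of chromosome 14, from 56365068 to 56388550. It was the most abundant member per kilobase of merged exons, with 159 ± 128 normalized counts per kilobase in HSD17B1-KI and 26.5 ± 30.7 in WT (SD, n = 7 and 8), whereas Casr had 7.52 and 0.618, Calb2 5.08 and 0.930 and Cadps 4.16 and 0.726. HSD17B1-KI mice 1 to 7 had 531, 417, 994, 576, 203, 143 and 1618 normalized counts of Atp12a. WT mice 1 to 8 had 81.5, 34.3, 80.3, 84.8, 75.5, 407, 30.1 and 57.3. WT mouse 6 stood inside the HSD17B1-KI range, and the other 7 WT mice were below all HSD17B1-KI mice. The ratio of the means was 6.02 and the log2 difference 2.66 (SE 0.55). The exons of Atp12a overlap those of an antisense gene, Gm10873, and as it is not given whether reads were counted by strand, reads of the 2 cannot be told apart.

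Calb2 (ENSMUSG00000003657), on the minus strand of chromosome 8 from 110137502 to 110168210, was near the limit of detection. It had 18.6, 5.18, 11.1, 11.8, 7.32, 5.95 and 2.17 normalized counts in HSD17B1-KI mice 1 to 7, from 2 to 17 reads. It had 3.39, 3.88, 0, 0, 0.787, 2.50, 2.41 and 0 in WT mice 1 to 8, from 0 to 6 reads, and the 3 values of 0 allow up to 3.30, 2.14 and 2.86 normalized counts. Hence 6 of 7 HSD17B1-KI mice exceeded the whole WT range, with HSD17B1-KI mouse 7 inside the WT range. The mean was 8.86 ± 5.43 (SD, n = 7) against 1.62 ± 1.61 (SD, n = 8), with a ratio of 5.47. The log2 difference was 2.00 (SE 0.47), and 0.66 with a pseudocount of 10 or 3.36 with a pseudocount of 0.1.

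Cadps (ENSMUSG00000054423), on the minus strand of chromosome 14 from 12372563 to 12823079, was uneven among the HSD17B1-KI mice. Mice 4 and 5 stood at 160 and 199 normalized counts, far from the remaining 5, which ranged from 7.14 to 19.7. WT mice 1 to 8 had 8.49, 6.47, 11, 7.12, 8.65, 33.7, 2.41 and 9.54. Only HSD17B1-KI mice 4 and 5 exceeded every WT mouse. The level averaged 62.6 ± 80.8 over HSD17B1-KI mice (SD, n = 7) and 10.9 ± 9.56 over WT mice (SD, n = 8), and the ratio of 5.73 between means fell to 2.28 between medians. The log2 difference was 1.70 (SE 0.66).

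**Figure D1:**
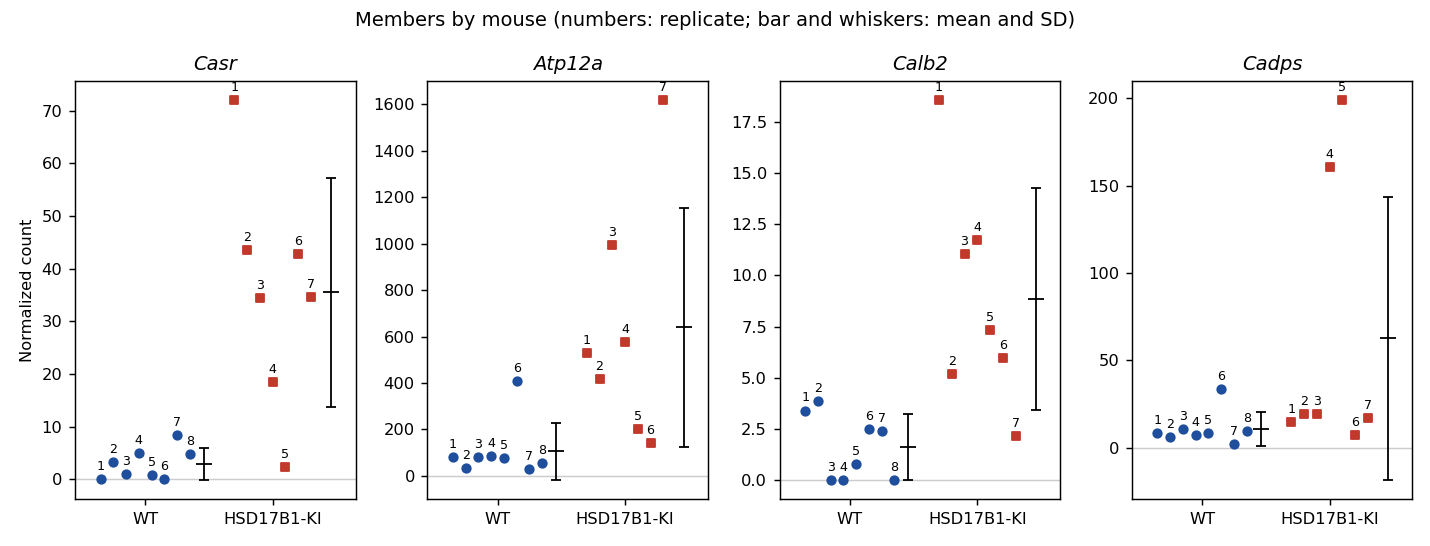
Normalized counts (y axis, linear, its own scale for each gene) of Casr, Atp12a, Calb2 and Cadps in 8 WT (circles) and 7 HSD17B1-KI (squares) mice, numbered by replicate, with the mean and SD of each genotype as a bar with whiskers. HSD17B1-KI mouse 5 is lowest for Casr and highest for Cadps, at 2.44 and 199, and WT mouse 6 stands above the other WT mice for Atp12a and Cadps, at 407 and 33.7.

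No member had groups that did not overlap, and the share of all genes without overlap is not given here. DESeq2 called 4 of 4 members higher in HSD17B1-KI, where 1.59% of the 19790 genes it tested were called higher. By edgeR 1 of 4 was called higher, where 48 of 21525 genes were. By limma-trend 0 of 4 were called, where 0.209% of 21525 genes were called higher. All 4 had a higher level at an unadjusted p under 0.05 by limma-trend, as did 1154 of the 21525 genes. As the members were chosen on this contrast, nothing is read from these counts. In whole ovaries, a larger number of cells that express a gene and more RNA per cell cannot be told apart.

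The members did not all peak in the same ovary of a genotype. Among HSD17B1-KI mice Casr was highest in mouse 1, Atp12a in mouse 7, Calb2 in mouse 1 and Cadps in mouse 5. Mouse 7, the highest for Atp12a, was the lowest for Calb2, and mouse 5, the highest for Cadps, was the lowest for Casr. Among WT mice Casr was highest in mouse 7, Atp12a and Cadps both in mouse 6, and Calb2 in mouse 2.

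Relations were tested on log2(normalized count + 1) over the 14 pairs that the 4 members form with each other and with Cyp17a1 and Star, and 10 pairs could be computed. A genotype was left out where the values of a gene fell into separate clusters, which removed HSD17B1-KI for Cadps and Star and both genotypes for Cyp17a1. One pair of the 10 passed an adjusted p of 0.05, Atp12a with Cadps. In the 8 WT mice their Pearson r was 0.92 (exact permutation p = 0.00315, Benjamini-Hochberg adjusted p = 0.0315), with a Spearman rho of 0.60 (exact permutation p = 0.132). Without WT mice 6 and 7, the 2 farthest from the median of Atp12a, r was 0.50 (exact permutation p = 0.317), so that the relation rests on those mice. It was 0.77 without WT mouse 6 alone, and the adjusted p was above 0.05 when WT mouse 2, 3, 5, 6 or 7 was left out. HSD17B1-KI mice 4 and 5, with the 2 highest Cadps values, had 576 and 203 normalized counts of Atp12a, inside the range of the other 5.

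Casr and Cadps ran in opposite directions in WT, with r = -0.73 (exact permutation p = 0.0189, adjusted p = 0.0945) and rho = -0.62 (exact permutation p = 0.106), and r = -0.78 without WT mice 1 and 7. The adjusted p missed 0.05 with all WT mice and was 0.0407 without WT mouse 1, where r was -0.86. In HSD17B1-KI the clusters of Cadps did not allow an r. There the 2 mice with the highest Cadps, 4 and 5, had the 2 lowest Casr values, 18.5 and 2.44 normalized counts.

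Casr and Atp12a showed no relation that passed the test over all 15 mice. After each genotype was centred on its mean, r was -0.17 and rho -0.39 (permutation p = 0.567 and 0.178, adjusted p for r = 0.809). The genotypes differed in sign, with r = 0.34 in HSD17B1-KI (exact permutation p = 0.472) and -0.71 in WT (exact permutation p = 0.0297, both unadjusted). In WT rho was -0.57. Without HSD17B1-KI mouse 5 and WT mouse 1, the 2 farthest from the median of Casr, r over both genotypes was -0.60 (permutation p = 0.0313, unadjusted). Calb2, with its few reads, had r = -0.11 with Casr, -0.09 with Atp12a and -0.06 with Cadps, at adjusted permutation p-values from 0.859 to 0.882. Without the 2 mice farthest from the median of the first gene of each pair these were -0.01, -0.42 and -0.07. With these few mice and low counts, such values do not show that the genes vary independently.

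**Figure D2:**
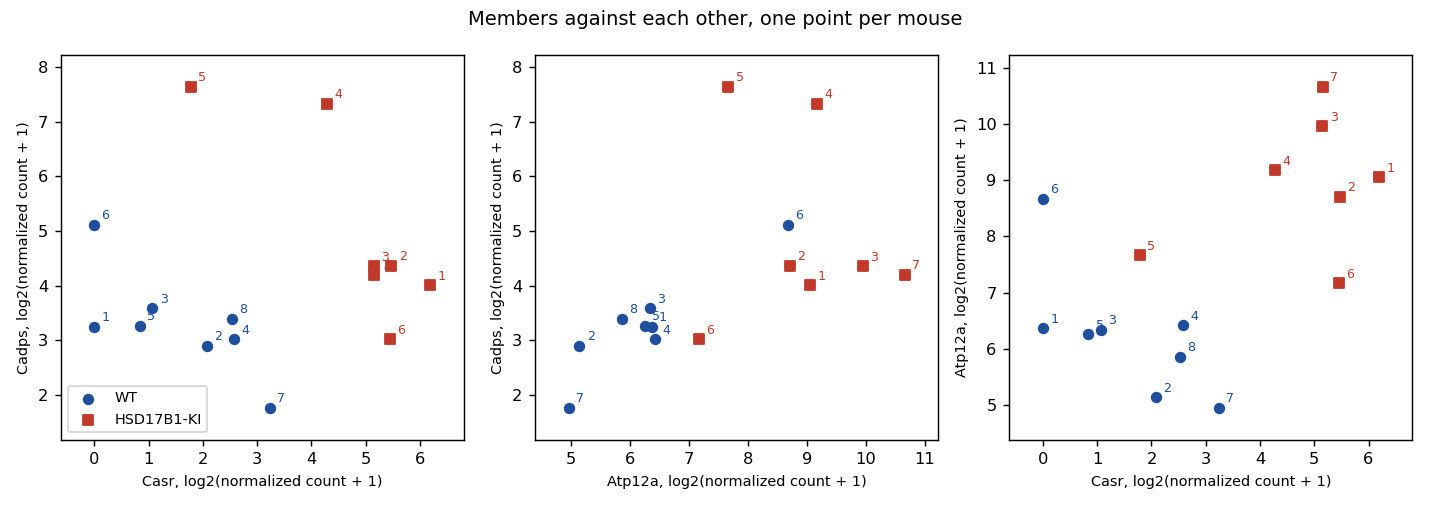
Each panel plots 1 member against another on the log2(normalized count + 1) scale on both axes, with 1 numbered point per mouse (WT circles, HSD17B1-KI squares). HSD17B1-KI mice 4 and 5 have the highest Cadps and the lowest Casr of their genotype, and WT mouse 6 lies apart from the other WT mice for Atp12a.

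Cyp17a1 split the mice of both genotypes. HSD17B1-KI mice 4 and 5 had 224 and 254 normalized counts, and the other 5 had between 24106 and 56551. WT mice 3 and 6 had 107 and 141, and the other 6 between 2033 and 21605. No correlation was computed across these clusters, and the values stand side by side. In the 4 mice of low Cyp17a1 (HSD17B1-KI 4 and 5, WT 3 and 6) Casr was at 18.5, 2.44, 1.10 and 0, which included the 2 lowest values of HSD17B1-KI. WT mice 1 and 5, with 2967 and 6322 normalized counts of Cyp17a1, also had Casr under 1. Cadps was at 160, 199, 11 and 33.7 in the same 4 mice, the 2 highest values of each genotype. In WT, mouse 3 at 11 was close to mouse 8 at 9.54, each from 10 reads. The WT part of this order thus rests on WT mouse 6.

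Atp12a and Calb2 followed no such order. In the same 4 mice Atp12a was at 576, 203, 80.3 and 407 normalized counts, and Calb2 at 11.8, 7.32, 0 and 2.50, both within the range of the other mice except for Atp12a in WT mouse 6. Calb2 was at 0 in WT mouse 3, of low Cyp17a1, and also in WT mice 4 and 8, with 14130 and 21605 normalized counts of Cyp17a1.

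Star was highest where Cyp17a1 was lowest in HSD17B1-KI. Mice 4 and 5 had 73441 and 103552 normalized counts of Star, and the other 5 had between 18934 and 28525. In WT, Star ranged from 5151 to 47695. WT mice 4, 7 and 8 had the lowest Star, at 5151, 6635 and 5455 normalized counts, and the highest Cyp17a1. They also had the highest Casr of WT, at 4.99, 8.43 and 4.77, each from 5 or 7 reads. WT mice 3 and 6, of low Cyp17a1, had 47695 and 40363 normalized counts of Star. WT mouse 5, outside that cluster, had 41061. Between genotypes the log2 difference was 1.88 (SE 1.55) for Cyp17a1 and 0.99 (SE 0.57) for Star, and neither passed the test (limma-trend adjusted p = 0.734 and 0.60). Within WT, Casr had r = -0.71 with Star (exact permutation p = 0.0669, adjusted p = 0.223, rho = -0.62, r = -0.78 without WT mice 1 and 7). Cadps had r = 0.50 with Star, Atp12a 0.36 and Calb2 0.31, at adjusted exact permutation p-values from 0.633 to 0.697. Without the 2 farthest mice these were 0.16, -0.18 and 0.44. None of the 4 relations to Star passed the test.

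The genotype difference of each member kept its sign when Cyp17a1 or Star entered the model as a covariate. As the members were chosen on this contrast and Cyp17a1 fell into clusters, this is a description and carries no weight. With Cyp17a1 the log2 difference was 2.68 for Casr, 2.73 for Atp12a, 2.08 for Calb2 and 2.35 for Cadps. With Star it was 4.05 for Casr, 2.56 for Atp12a, 1.77 for Calb2 and 1.00 for Cadps. Without a covariate the values were 3.24 (SE 0.64) for Casr and 1.70 (SE 0.66) for Cadps. Beside these, the value of Casr was lower and that of Cadps higher with Cyp17a1, and the reverse held with Star. The shifts were not tested.

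**Figure D3:**
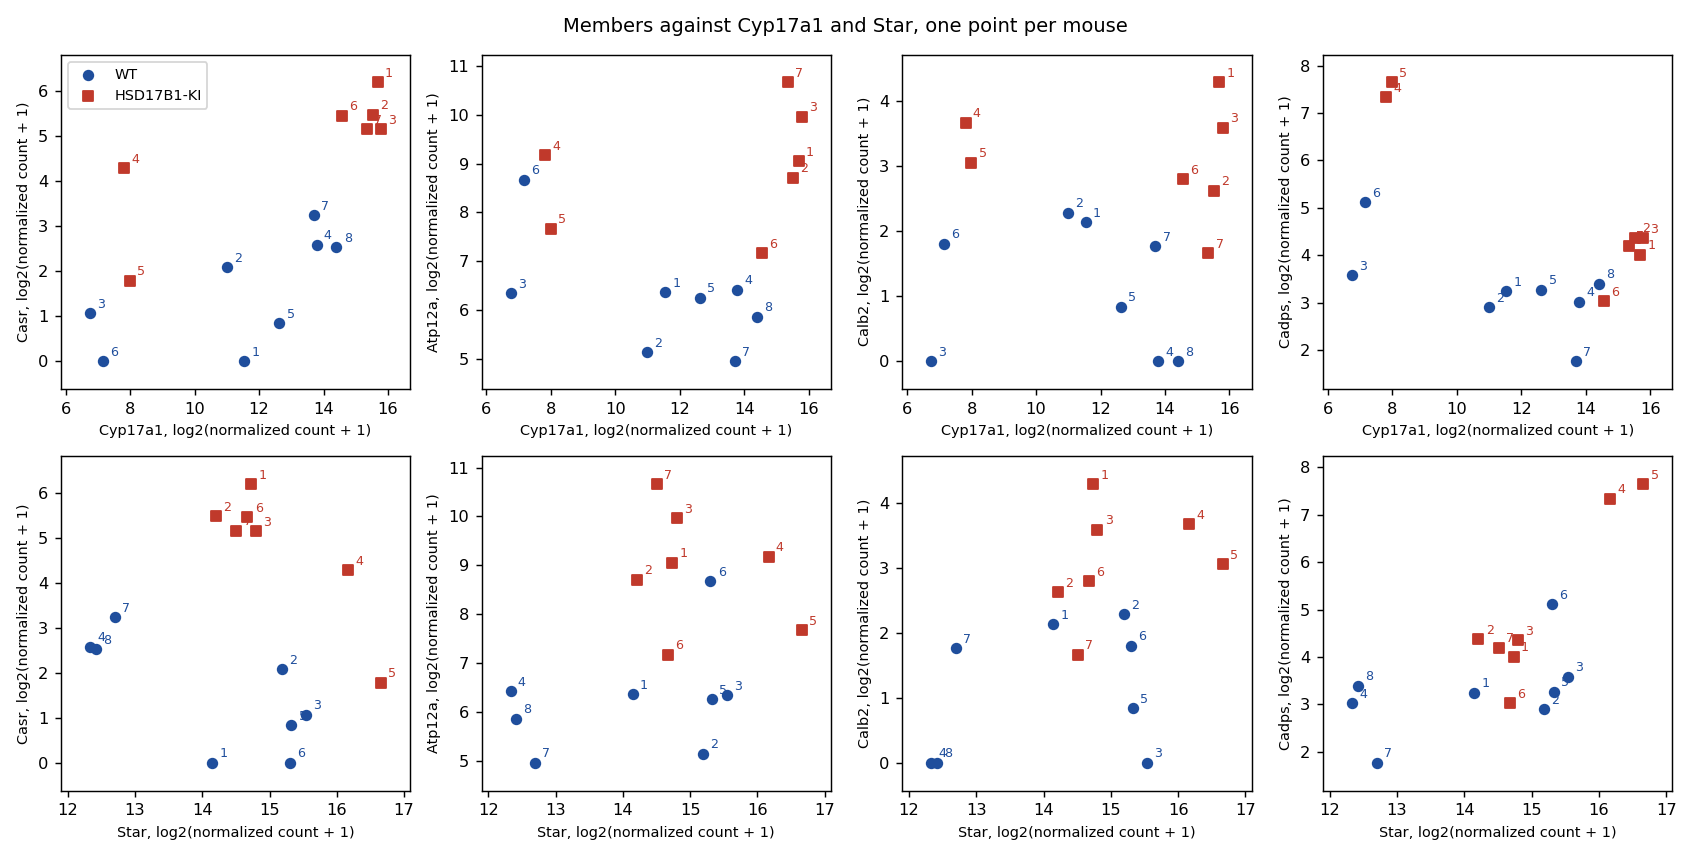
Members (y axes) against Cyp17a1 (upper row) and Star (lower row), all as log2(normalized count + 1), with 1 numbered point per mouse (WT circles, HSD17B1-KI squares). HSD17B1-KI mice 4 and 5 and WT mice 3 and 6 stand to the left of the others for Cyp17a1. These 4 mice hold the 2 highest Cadps values of each genotype, with WT mouse 3 close to WT mouse 8.

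The genes most like each member were taken over all 15 mice after centring each genotype, among 15632 genes averaging 10 or more normalized counts, and their r is a maximum over these genes and carries no test. For Casr they were Zcchc16, with r = 0.936, Pkdcc, a secreted kinase, with 0.906 and Serpina3c, a protease inhibitor, with 0.905. All 3 had higher means in HSD17B1-KI than in WT, 316 against 104 normalized counts for Zcchc16, 17644 against 10106 for Pkdcc and 4524 against 876 for Serpina3c. For Cadps they were Ndst3, a heparan sulfate sulfotransferase, with 0.929, Tmem173, the adaptor STING, with 0.928 and Slc6a8, the creatine transporter, with 0.921. Their means were close in both genotypes, 45.5 against 43.7 normalized counts for Ndst3, 740.4 against 843 for Tmem173 and 2255 against 2418 for Slc6a8. The r of Cadps took in HSD17B1-KI, where its values fell into separate clusters, so that mice 4 and 5 weigh heavily in it. It was 0.977, 0.987 and 0.972 in HSD17B1-KI alone and 0.77, 0.887 and 0.854 in WT alone. Over the 15 mice r was lower for Atp12a and Calb2, whose values did not fall into such clusters. For Atp12a it was 0.79 with Chl1, a cell adhesion molecule, 0.77 with Ap3s2 and 0.75 with Gcsam. For Calb2 it was 0.76 with Ttc36, 0.75 with Gpt and 0.75 with Cxcl13.

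Marker lists of 9 cell types gave 36 relations to the members, of which 6 had an unadjusted permutation p under 0.05 and 0 an adjusted p under 0.05. The highest rank was that of Casr with the granulosa cell list over 15 mice, at r = 0.73 (permutation p = 0.00251, adjusted p = 0.0904, rho = 0.78), with 0.67 in HSD17B1-KI, 0.80 in WT and 0.71 without HSD17B1-KI mouse 5 and WT mouse 1. Without HSD17B1-KI mouse 4 it was 0.79, with an adjusted p of 0.0335. All 8 granulosa markers were detected, and their summed level ranged from 75165 to 224605 normalized counts in HSD17B1-KI and from 92367 to 201662 in WT. In WT the adrenal cortex list had r = -0.85 with Casr, 0.73 with Atp12a and 0.72 with Cadps (exact permutation, adjusted p from 0.181 to 0.198), with rho of -0.81, 0.50 and 0.55. Without WT mouse 6 the values for Atp12a and Cadps were 0.438 and 0.447, and without WT mice 6 and 7, the 2 farthest from the median, they were 0.326 and 0.445, so that they rest on WT mouse 6. Without WT mice 1 and 7 that for Casr was -0.92. That list was led by Cyp11b1, with 2325 normalized counts in WT mouse 6 and 1146 and 1575 in HSD17B1-KI mice 4 and 5, while Cyp11b2 had a mean under 2. Casr also had r = 0.62 with the oocyte list and 0.57 with the list of neurons and chromaffin cells over 15 mice (permutation, both adjusted p = 0.198). In HSD17B1-KI alone r was 0.958 and 0.842 (exact permutation, both p = 0.000198, unadjusted), with a rho of 1.0 for both lists. In WT alone r was 0.284 and 0.176. The values over 15 mice moved with single mice. They were 0.396 and 0.379 without HSD17B1-KI mouse 5 (permutation, both adjusted p = 0.629), and 0.423 and 0.458 without HSD17B1-KI mouse 5 and WT mouse 1. Without WT mouse 7 they were 0.787 and 0.737 (permutation, adjusted p = 0.00684 and 0.0425). Calb2, with its few reads, had r = 0.928 with the surface epithelium and mesothelium list in HSD17B1-KI alone (exact permutation p = 0.000794, unadjusted, rho = 0.89). In WT alone it was -0.19, and over 15 mice 0.10 (permutation, adjusted p = 0.90). With the oviduct list Calb2 had r = 0.755 in HSD17B1-KI alone (exact permutation p = 0.0492, unadjusted) and 0.24 in WT. The part of these cell types in the values of the members was not tested.

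Casr is also expressed in the distal nephron, and Atp12a in the collecting duct. Of 16 markers of the distal nephron and collecting duct, 14 had a row and 7 of these had a mean under 2 normalized counts, Umod, Slc12a1, Slc12a3, Avpr2, Scnn1g, Kcnj1 and Slc4a1. The summed level was 889 to 3028 normalized counts in HSD17B1-KI and 1019 to 3236 in WT. Aqp2, the vasopressin-regulated water channel, had 20.7 to 377 normalized counts (median 134) in HSD17B1-KI and 5.50 to 46.9 (median 16.2) in WT. The other detected markers of this list did not follow Aqp2 in the difference between genotypes. The ratio of the mean in HSD17B1-KI to that in WT was 7.20 for Aqp2, 1.27 for Aqp3, 1.00 for Atp6v1b1, 0.921 for Hsd11b2, 0.726 for Scnn1a and 0.646 for Scnn1b, and Slc26a4 was at 0 in all HSD17B1-KI mice with a mean of 4.83 in WT. Within HSD17B1-KI, Aqp2 was highest in mice 1, 2 and 6 and lowest in mice 4 and 5, the same 3 and 2 mice as for Casr. Within WT, mice 4, 7 and 8 were highest for both genes. WT mouse 1, at 0 for Casr, came next for Aqp2, at 22.1 normalized counts. With this list, which holds Aqp2, Casr had r = 0.43 over 15 mice (permutation p = 0.117, adjusted p = 0.528). That r was 0.85 in HSD17B1-KI (exact permutation p = 0.00119, unadjusted) and 0.15 in WT. Without HSD17B1-KI mouse 5 and WT mouse 1 it was 0.80 (permutation p = 0.00321, unadjusted).

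Other genes of the members' pathways were tested on genotype, and the share over all genes is given beside the counts. Of 171 further genes in 6 lists, 164 were tested by limma-trend on genotype and 0 were called higher and 0 lower, where 0.209% and 0.00465% of all genes were called. Without adjustment 6 had a higher and 14 a lower level at p under 0.05, together 12.2%, whereas of all 21525 genes 1154 had a higher and 999 a lower level at such a p, and the median log2 difference was -0.05 against -0.02. By edgeR 0 genes were called in either direction. By DESeq2 1 gene was called higher, Fxyd1, and 2 lower, Calb1 and Ncs1, where 1.59% and 0.718% of all genes were called.

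Among the 26 genes of calcium-sensing receptor signalling, from G proteins to IP3 receptors, 1 had an unadjusted p under 0.05 by limma-trend. This was Gprc6a, the amino acid receptor nearest to Casr in sequence, with 9.76 to 57.5 normalized counts in HSD17B1-KI and 0 to 37.8 in WT. Its log2 difference was 1.45 (limma-trend adjusted p = 0.466). In 4 of 8 WT mice Gprc6a was above the lowest HSD17B1-KI mouse, and the groups overlapped widely.

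Among the proton-potassium and sodium-potassium ATPases, 17 genes besides Atp12a, Fxyd1 was the one called by DESeq2. Fxyd1, or phospholemman, regulates the sodium pump, and it had 4073 to 10846 normalized counts (median 6600) in HSD17B1-KI and 3786 to 5151 (median 4392) in WT. Its log2 difference was 0.66 by limma-trend (adjusted p = 0.173) and 0.73 by DESeq2 (adjusted p = 0.0112), and 5 of 7 HSD17B1-KI mice exceeded the whole WT range. The DESeq2 adjusted p was 0.0527 without WT mice 1 and 8, which had the highest levels of the oviduct marker list. Atp4a, the gastric proton pump and a paralog of Atp12a, differed by 0.25 on the log2 scale (limma-trend), and its direction turned with Star as a covariate.

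Among the 26 measured calcium buffers and EF-hand proteins 6 had an unadjusted p under 0.05 by limma-trend, 2 higher and 4 lower, and the list had a median log2 difference of -0.12. Calb1, or calbindin-D28k, the buffer nearest to Calb2, had 8515 normalized counts in WT mouse 1, 4807 in WT mouse 8 and 1775 in WT mouse 4, and 131 to 218 in the other 5 WT mice. HSD17B1-KI mice had 160 to 537. DESeq2 called Calb1 lower (log2 difference -3.09, adjusted p = 0.0236), limma-trend did not (-1.42, adjusted p = 0.631), and without WT mice 1 and 8 the limma-trend value was -0.26. The oviduct marker list was at its highest in the same WT mouse 1, at 230395 normalized counts against 497 in the lowest WT mouse, and its part in the Calb1 value was not tested. Ncs1, a neuronal calcium sensor, had 363 to 598 normalized counts in HSD17B1-KI and 550 to 1180 in WT, with 4 of 7 HSD17B1-KI mice below every WT mouse. Its log2 difference was -0.52 (limma-trend adjusted p = 0.204, DESeq2 adjusted p = 0.0465), and the DESeq2 adjusted p was 0.163 without WT mice 1 and 8.

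In the remaining lists DESeq2 made no call but that of Calb1, a gene of 2 lists. Of 14 tested genes of calcium hormones and transcellular calcium transport, 2 had an unadjusted p under 0.05 by limma-trend, the hormone Stc1 and the vitamin D receptor Vdr, both at lower values in HSD17B1-KI. Of 52 calcium channels, pumps and exchangers 7 did, 1 higher and 6 lower. Of 31 tested genes of dense-core vesicle priming and cargo, the list that holds Cadps, 1 did, Syt9. Cadps2, the paralog of Cadps, differed by -0.03, with 326 to 471 normalized counts in HSD17B1-KI and 224 to 932 in WT, and its direction turned without WT mice 1 and 8.

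**Figure D4:**
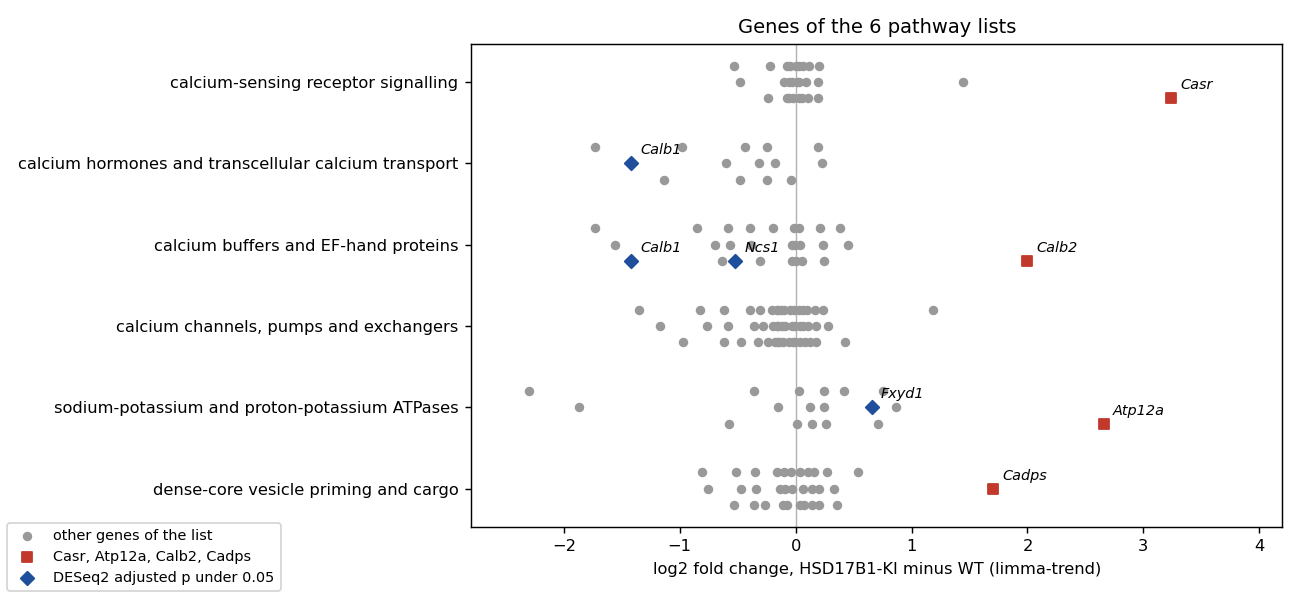
The log2 difference of HSD17B1-KI minus WT (x axis, limma-trend) for each gene of 6 pathway lists (rows, points spread vertically for legibility), with the 4 members as squares and genes called by DESeq2 as diamonds. The members lie between 1.70 and 3.24, and the median over the other 164 genes was -0.05.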

How the data were processed

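Total RNA of whole ovaries was made into stranded mRNA libraries, 1 per mouse, and the total ranged from 26544745 to 72362981 recovered reads, so that values of a few normalized counts are imprecise. The authors demultiplexed with bcl2fastq (2.20), aligned with STAR (2.7.3) to mm10, counted reads per gene and deposited 1 table of normalized signal, counts divided by size factors. The counting program and annotation release are not given in the sources used here. All deposited values (100.0%) were whole multiples, within 0.1, of the signal of 1 read, and reads were recovered for the count tests.

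Genotypes were compared with limma-trend (3.58.1) on log2(normalized count + 1) over 21525 genes with a mean of at least 2, two-sided, with Benjamini-Hochberg adjustment at 0.05, and with edgeR (4.0.16) and DESeq2 (1.42.0) on recovered reads as alternatives, in R (4.3.3). The p-values measure the spread between mice. The fits were tested on a single simulated data set with 200 genes changed 3-fold and no clusters of mice. There DESeq2 made 46 false calls, limma-trend 8 and edgeR 5, and they recovered 180, 167 and 166 of the changed genes. Genes called by DESeq2 alone are thus taken as less certain, as far as such a simulation goes. Relations used Pearson r and Spearman rho with two-sided permutation tests, exact within a genotype and with 100000 resamples over 15 mice, in SciPy (1.17.1), adjusted over 10 pairs of genes and over 36 pairs with marker lists. Values were in separate clusters where a gap exceeded 0.5 of the range with at least 2 mice on each side.

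Members and gene lists were chosen with earlier results of these data known. Named were the members, Cyp17a1, Star, Aqp2, the nearest paralogs and partners, up to 4 called genes per pathway list and the 3 most alike genes per member. One gene of this rule is not reported here. Other genes were named after their values were seen. Alternatives were pseudocounts of 0.1 and 10, no filter, a stricter filter (mean of 10), upper quartile scaling, a replicate block, Cyp17a1 or Star as a covariate, an adjusted p under 0.1, Spearman rho and leaving out each mouse. Leaving out WT mice 1 and 8, by limma-trend and DESeq2, was added after seeing the data. Positions come from GENCODE M21 (GRCm38), which held 27533 of the 27907 identifiers.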

Additional observations from a re-analysis of the deposited data

Results flagged for a closer look

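In 26 groups of a named gene in 1 genotype, 4 had a mouse whose gap to the next exceeded Dixon's limit. For normally distributed values chance gives about 1 in 20 groups. The limit was applied to normalized counts without a log scale, so that this rate need not hold here. WT mouse 6 was high for Atp12a, at 407.3 normalized counts against 84.77 in the next WT mouse, and for Cadps, at 33.73 against 11. HSD17B1-KI mouse 6 was high for Calb1, at 536.9 against 234.3, and WT mouse 8 for Ncs1, at 1180 against 812.9.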

How the results depend on the processing

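The log2 differences of Casr, Atp12a, Calb2 and Cadps kept their sign under all 26 or 27 alternatives run for each, from 1.66 to 4.33 for Casr, 2.37 to 3.01 for Atp12a, 0.66 to 3.36 for Calb2 and 1.00 to 2.53 for Cadps. As the members were chosen on this contrast, the kept signs carry no weight. The genotype comparison by limma-trend called 46 genes (45 higher, 1 lower). It called 28 with no filter, 286 with Cyp17a1 and 1007 with Star as a covariate, 146 at an adjusted p under 0.1, 9 without WT mice 1 and 8, and 6 to 139 with each mouse left out, the extremes being HSD17B1-KI mice 2 and 5. DESeq2 called 456 (314 higher, 142 lower), and 255 without WT mice 1 and 8. With a replicate block limma-trend called 0 (1730 at an unadjusted p under 0.05). The replicate numbers gave no pairing, as same-numbered mice correlated from -0.55 to 0.55. Of the relations among members, Cyp17a1 and Star, 1 passed, 0 by Spearman rho, and 0 to 2 with each mouse left out. Of those with marker lists 0 passed, and 0 to 2 with each mouse left out. Directions turned for values near 0. Atp4a was at -0.19 with Star as a covariate. Cadps2 was at 0.16 with the replicate block, 0.27 with Star as a covariate, 0.33 and by DESeq2 0.28 without WT mice 1 and 8, and between -0.13 and 0.16 with each mouse left out. With a pseudocount of 10, r was 0.023 for Casr with Atp12a, 0.135 for Casr with Calb2 and 0.009 for Calb2 with Cadps. With each mouse left out these r ranged from -0.547 to 0.056, -0.263 to 0.001 and -0.49 to 0.17, and that of Atp12a with Calb2 from -0.29 to 0.15. The causes were not tested. Depth limits Calb2 in all mice and Casr in WT, where single libraries held 0 to 17 reads.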
